A study of Mus musculus with 4 samples.

Results

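The genes described are 9 members of the fibroblast growth factor (FGF) system: the receptors Fgfr1, Fgfr2, Fgfr3 and Fgfr4, the kinase-lacking receptor Fgfrl1, and the ligands Fgf1, Fgf2, Fgf7 and Fgf18. They were found by symbol among the 32286 features of the matrices, and all 9 were present in each of the 4 libraries. The libraries held tdTom+ cells sorted from digested T11-L2 vertebrae of mice in which Cre under the Prss56 promoter marks boundary cap-derived cells and their progeny. Each condition had 1 library, profiled with droplet 3′ single-cell RNA sequencing. Controls carried Prss56Cre/+;R26tdTom/tdTom;Nf1+/+ and mutants Prss56Cre/Cre;R26tdTom/tdTom;Nf1fl/fl, at 3 months or at 12 to 16 months of age. The mutants therefore differed from the controls in the number of Cre alleles as well as in Nf1, and these cannot be told apart. Dead cells and cells positive for CD45, CD31 or CD11b were gated out in the sort, and the number of mice per library was not given in the sources used here.

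FGF ligands bind receptor tyrosine kinases together with heparan sulfate chains, and the activated receptors signal through adaptor proteins to RAS and the MAPK cascade, which neurofibromin, the product of Nf1, restrains. In the skeleton Fgfr3 is known as a brake on chondrocyte proliferation in the growth plate, Fgfr1 as a receptor of hypertrophic chondrocytes and osteoblasts, and Fgfr2 as a receptor of osteoprogenitors. Fgfrl1 binds ligands but has no kinase domain. Fgf1 and Fgf2 lack a classical secretion signal, Fgf7 is a stromal ligand for an epithelial splice form of Fgfr2, and Fgf18 acts on chondrocytes and osteoblasts.

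Cells were kept above 750 UMIs and 500 genes and below 7% mitochondrial counts, which left 1757 cells, 717 and 484 from the control and mutant at 3 months and 135 and 421 from the control and mutant at 12 to 16 months. The passing cells held between 2154537 and 9429264 UMIs per library, and no barcode was shared between libraries. Cells were assigned by fixed gates in this order: 245 hypertrophic cells (Sox9 and at least 2 UMIs of Ihh, Panx3 and Prkg2 together), 59 endplate cells (Sox9 and at least 3 UMIs of Zfp804b and Dab1), 984 other cartilage cells (Sox9 and at least 3 Acan UMIs) and 192 bone/stroma cells (at most 2 Acan UMIs and at least 1 Runx2 UMI), which left 277 cells in no gate. Among 222 cells that met the endplate rule, 163 also met the hypertrophic rule and were counted there. In the library order control and mutant at 3 months, then control and mutant at 12 to 16 months, the hypertrophic gate held 38, 136, 15 and 56 cells and the endplate gate 14, 38, 1 and 6 cells. Nf1 stood at 131, 150, 147 and 125 UMIs per 1000000 UMIs (CPM) over all passing cells in that order, and 3′ counts do not show whether the floxed part was deleted.

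The hypertrophic label was checked with Col10a1, a collagen of hypertrophic cartilage that the gate did not use. It stood at 2993, 640, 0 and 2215 CPM in the hypertrophic gate and at 133, 49.3, 59.2 and 151 CPM in other cartilage, so the 15 gated cells of the control at 12 to 16 months lacked this marker. The single endplate cell of that control held 2 Col2a1 and no Acan UMIs but 135 UMIs of Ibsp and 43 of Col1a1, so the sum it forms is not cartilage by its markers. Within the bone/stroma gate 23 of 39 cells of the mutant at 3 months were hematopoietic by Ptprc, against 1, 2 and 7 in the other libraries, and the levels of the members called or described in this gate are therefore also given without such cells, while the pathway genes and pooled receptor ratios of this gate include them. In any summed count fewer expressing cells and less RNA per cell cannot be told apart, so shares of cells are given where the counts allow.

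The members were of very unequal abundance in these cells, with 4727 UMIs of Fgfr1, 7720 of Fgfr2, 2964 of Fgfr3 and 1942 of Fgfrl1 over all passing cells. Among the ligands, Fgf2 had 783 UMIs, Fgf1 437, Fgf7 303 and Fgf18 39. Fgfr4 was all but undetected, with 11 UMIs. Of the 9 members, 7 passed the filter on low counts for the comparison of gates, and Fgfr4 and Fgf18 did not.

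**Figure D1:**
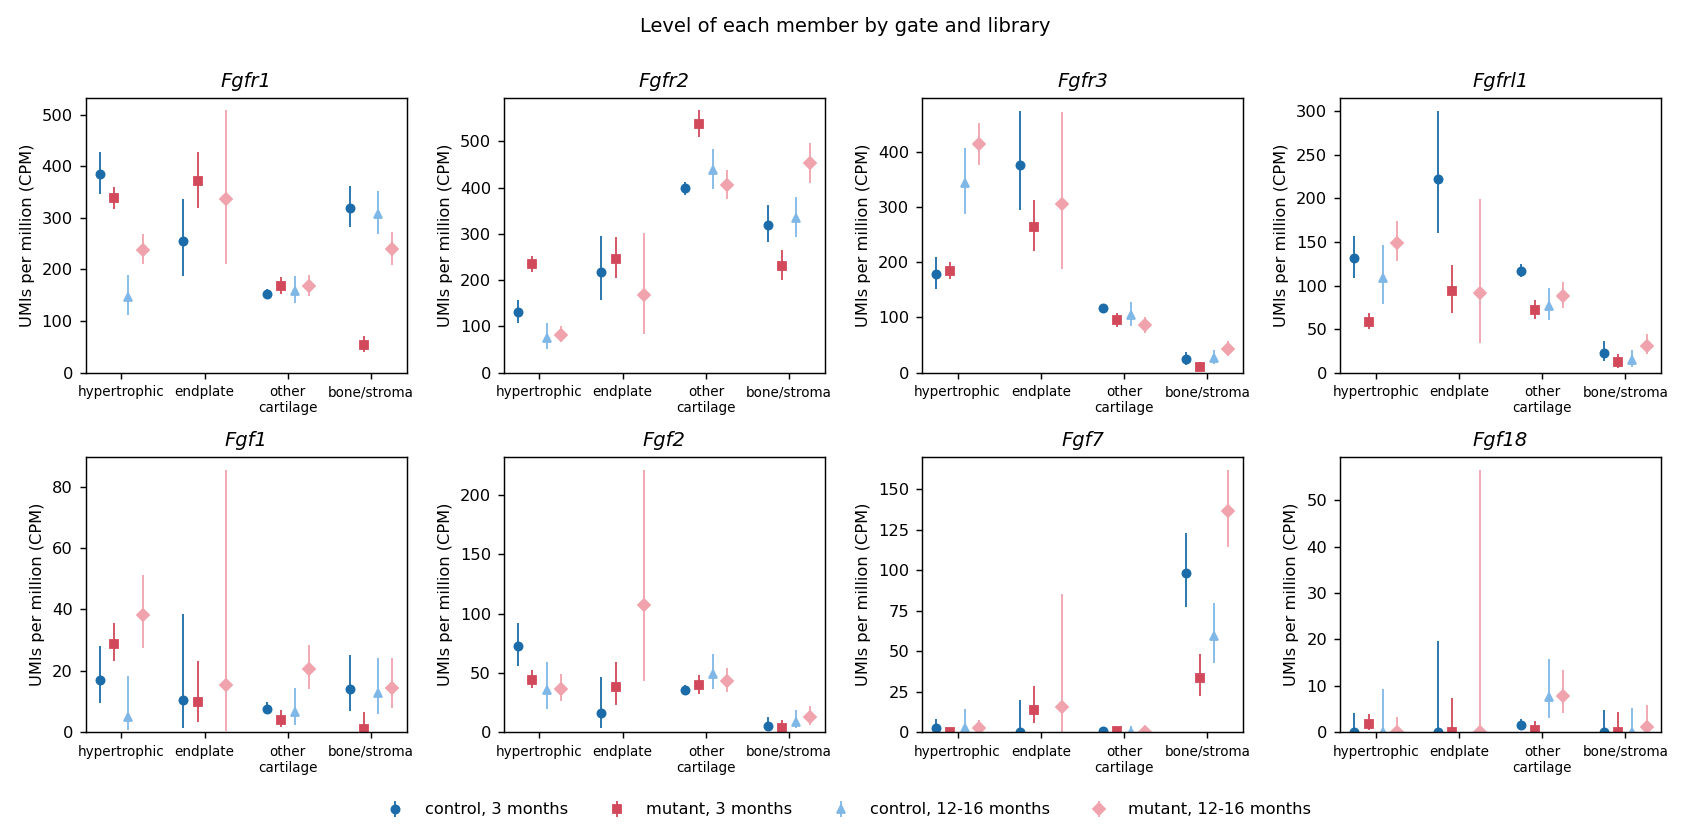
Level of each member in UMIs per 1000000 UMIs (CPM) in the 4 gates, with 1 point per library and bars showing the exact Poisson 95% interval, which covers counting error only. The single endplate cell of the control at 12 to 16 months and Fgfr4 are not drawn. Fgfr3 lies higher in the hypertrophic and endplate gates than in other cartilage, Fgfr2 lies lower in the hypertrophic gate, and Fgf7 is found almost wholly in bone/stroma.

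To compare the gates, UMIs were summed per gate and library and tested across the 4 libraries with library as a block (edgeR quasi-likelihood test, Benjamini-Hochberg adjustment over 10148 genes). Between hypertrophic and other cartilage cells, Fgfr3 was higher and Fgfr2 lower, which is 1 member in each direction, where 11.3% of all tested genes were higher and 12.1% lower. Fgfr3 reached 179, 184, 343 and 414 CPM in hypertrophic cells and 117, 94.4, 105 and 85.8 CPM in other cartilage cells. Each hypertrophic sum lay above each other cartilage sum, and both libraries of 12 to 16 months stood above both of 3 months. The hypertrophic sum of the control at 12 to 16 months holds 15 cells, which lacked the marker Col10a1. The log2 fold change of Fgfr3 was 1.26 ± 0.361 (SE, n = 4 libraries, adjusted p = 0.0186 in edgeR). This call was lost without the control or without the mutant at 12 to 16 months, where the adjusted p rose to at most 0.165.

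Fgfr2 took the opposite course in the same cells, at 130, 234, 75.8 and 82.2 CPM in the hypertrophic gate and 398, 538, 439 and 405 CPM in other cartilage. Again the sums did not overlap, with the mutant at 3 months the highest in both gates. The log2 fold change of Fgfr2 was -1.94 ± 0.358 (SE, n = 4 libraries, adjusted p = 0.00091 in edgeR), and it passed the threshold under all 13 alternative settings. One limit applies to each Fgfr2 count. In the GENCODE vM21 annotation of GRCm38 the Fgfr2 gene (ENSMUSG00000030849, chromosome 7, 130162451 to 133123350, minus strand) spans 2960900 bases through 1 transcript, Fgfr2-217, while the next longest transcript spans 103813 bases. Across that span lie 36 other genes of the same strand, and whether the authors' reference used this model was not given in the sources used here. Hematopoietic cells, pooled over the libraries, held 61.0 CPM of Fgfr2 against 1.58 CPM of Fgfr1.

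Fgfr1 was at 385, 338, 146 and 238 CPM in hypertrophic cells, where both libraries of 3 months stood above both of 12 to 16 months, the reverse of the order for Fgfr3. In other cartilage Fgfr1 varied little, at 153, 168, 159 and 167 CPM. Its log2 fold change between these gates of 0.61 ± 0.460 did not pass the test (SE, n = 4 libraries, adjusted p = 0.376 in edgeR), and the 15-cell sum of the control at 12 to 16 months was the only hypertrophic value below its own other cartilage value.

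**Figure D2:**
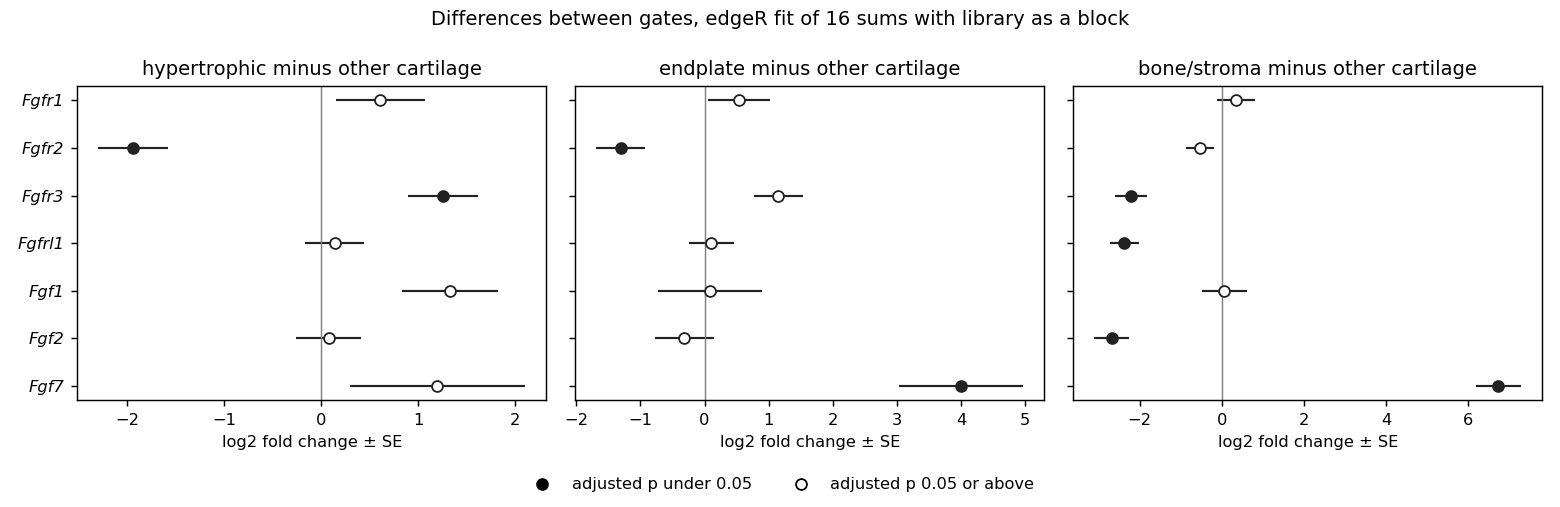
Log2 fold changes of the 7 tested members between gates from the edgeR fit across 4 libraries, with bars of 1 standard error and filled points where the adjusted p is under 0.05. Fgfr2 falls and Fgfr3 rises in hypertrophic against other cartilage cells, and 4 members pass in bone/stroma against other cartilage.

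Endplate cells, which make the cartilage plates that cover the vertebral bodies, held 377, 264, 161 and 306 CPM of Fgfr3, and 255, 371, 322 and 337 CPM of Fgfr1. Apart from the third, these values lay above other cartilage for both genes. The third also did so, but it is 3 Fgfr3 and 6 Fgfr1 UMIs of the 1 cell that was not cartilage by its markers. That cell stayed in the fit as the sum of its library. In the test Fgfr3 gave a log2 fold change of 1.15 ± 0.378 against other cartilage that missed the threshold (SE, n = 4 libraries, adjusted p = 0.0561 in edgeR) and passed it under 8 of 13 alternatives, among them the one limited to sums of at least 10 cells. The members called were Fgf7, higher, and Fgfr2, lower, where 5.98% of all tested genes were higher and 7.38% lower. Fgfr2 was at 217, 246, 537 and 168 CPM, below other cartilage in all libraries but the 1-cell sum, with a log2 fold change of -1.31 ± 0.376 (SE, n = 4 libraries, adjusted p = 0.0308 in edgeR) that was kept under 9 of 13 alternatives. It was lost, at an adjusted p of at most 0.140, when only sums of at least 10 cells were used and without the control at 3 months, the mutant at 3 months or the mutant at 12 to 16 months.
The Fgf7 call of 4.0 ± 0.971 on the log2 scale (SE, n = 4 libraries, adjusted p = 0.0128 in edgeR) rests on 8 UMIs in 59 cells, 7 of them in the mutant at 3 months. Without the mutant at 3 months its adjusted p was 0.606, and without the mutant at 12 to 16 months it also missed the threshold. Fgf7 entered the test of endplate cells only because its bone/stroma sums passed the filter on low counts. Between hypertrophic and endplate cells no member was called in edgeR, where 0.365% of tested genes were higher and 0.384% lower in hypertrophic cells. Of the 245 hypertrophic cells 163 also met the endplate rule, so the absence of calls cannot show that the gates are alike. In this comparison Fgfr2 was lower in hypertrophic cells in all 4 libraries (-0.63 ± 0.377) and Fgf1 higher in all 4 (1.25 ± 0.754, SE), the 1-cell sum included. Fgf7 alone had an unadjusted p under 0.05 there, DESeq2 called 0 members as well, and the log2 difference of Fgfr3 was 0.11 ± 0.382 (SE), which leaves room for a difference in either direction.

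Bone/stroma cells differed from other cartilage cells in 4 members, 1 higher and 3 lower, where 16.3% of all tested genes were higher and 16.8% lower. The higher one, Fgf7, passed the filter on low counts only through its bone/stroma sums and is described below. Fgfr3 fell to 24.2, 10.4, 26.7 and 42.3 CPM, below each cartilage value, with a log2 fold change of -2.22 ± 0.397 (SE, n = 4 libraries, adjusted p = 0.000437 in edgeR). Fgfrl1, the receptor without a kinase, was at 22.9, 11.6, 14.1 and 31.0 CPM against 117, 71.4, 76.7 and 88.2 CPM in other cartilage, a log2 fold change of -2.38 ± 0.352 (SE, n = 4 libraries, adjusted p = 7.72e-05 in edgeR). The sums of neither gene overlapped between the gates. For no comparison of gates is the share of all genes without overlap given here, so a lack of overlap cannot be called particular to the members. Fgfr1 was at 320, 53.4, 308 and 239 CPM and Fgfr2 at 320, 231, 335 and 452 CPM in bone/stroma, and neither passed the test (adjusted p = 0.618 and 0.263 in edgeR).

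The low Fgfr1 value of the mutant at 3 months came from the library in which 23 of 39 bone/stroma cells were hematopoietic. Without hematopoietic cells Fgfr1 was at 321, 238, 353 and 261 CPM and Fgfr2 at 321, 836, 366 and 492 CPM. The order of the mutant and the control at 3 months thus turned for Fgfr2, from a ratio of 0.722 (95% interval 0.596 to 0.873) over all bone/stroma cells to 2.61 (2.12 to 3.19) without hematopoietic cells. Fgfr3 and Fgfrl1 in the same library moved from 10.4 to 47.6 CPM and from 11.6 to 26.5 CPM, still below other cartilage. The same 4 members were called when cells with a Ptprc, Cdh5 or Acta2 UMI were removed from all gates.

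Bone/stroma held 2 populations with unlike receptor levels, 92 marrow stromal cells (at least 5 Cxcl12 UMIs) and 52 osteoblastic cells (at least 2 UMIs of Sp7, Ibsp and Bglap together). Hematopoietic, endothelial and mural cells were set apart first, and a cell that met both remaining rules was counted as marrow stromal. Fgfr2 was at 404, 1003, 923 and 692 CPM in marrow stromal cells and 238, 581, 196 and 261 CPM in osteoblastic cells, higher in the former in all 4 libraries. Fgfr1 was lower in marrow stromal than in osteoblastic cells in 3 of 4 libraries, at 239, 211, 240 and 284 against 428, 387, 401 and 267 CPM. These subsets were not part of the fit and carry no test. The marrow stromal sums hold 22, 11, 9 and 50 cells and the osteoblastic sums 18, 4, 13 and 17 cells.

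**Figure D3:**
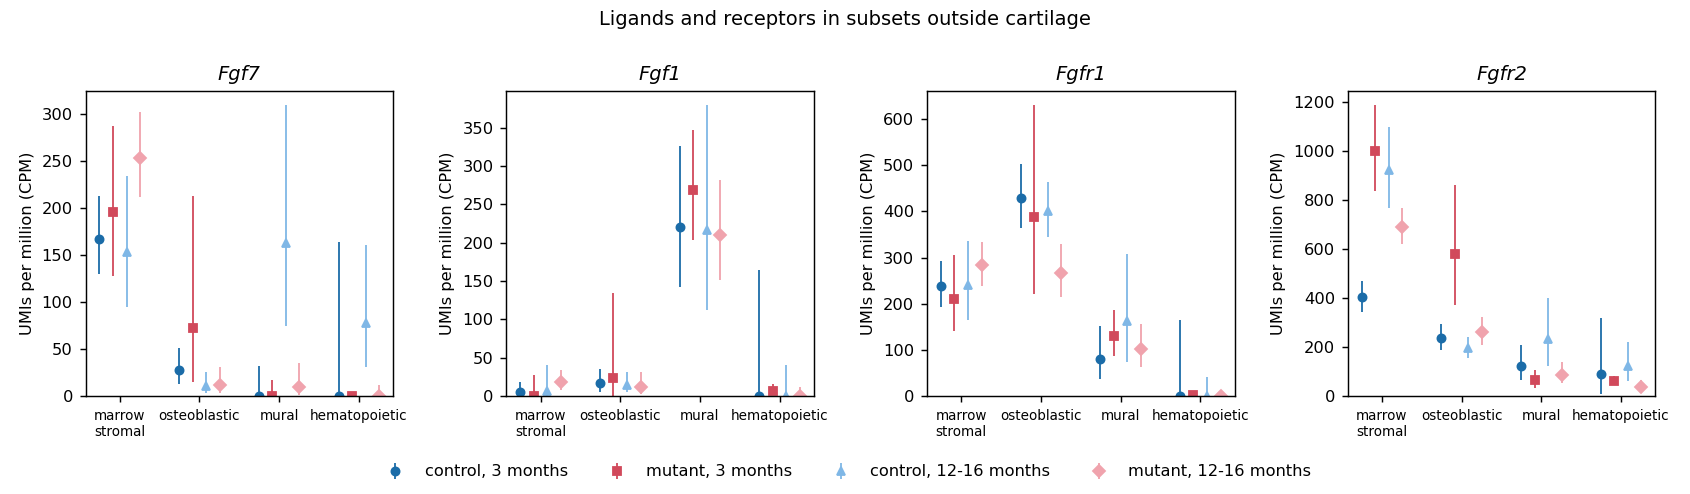
Levels of Fgfr1, Fgfr2, Fgf7 and Fgf1 in UMIs per 1000000 UMIs (CPM) in cell subsets, with 1 point per library and exact Poisson 95% intervals. Fgf7 is highest in marrow stromal cells in 3 of 4 libraries, the control at 12 to 16 months having 163 CPM in 3 mural cells, and Fgf1 is highest in mural cells in each library.

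The balance of the receptors was also described as a ratio of UMIs within the same cells, which needs no scaling to library size. Capture of the 2 transcripts may differ, so only the change of a ratio between groups of cells is read. Pooled over the libraries, the ratio of Fgfr3 to Fgfr1 was 0.782 (95% interval 0.727 to 0.841) in hypertrophic, 0.863 (0.719 to 1.03) in endplate, 0.677 (0.630 to 0.726) in other cartilage and 0.118 (0.0932 to 0.147) in bone/stroma cells. By library, in the order given above, the ratio was 1.48, 0.711, 0.5 and 0.909 in endplate cells, with the third from 1 cell. In bone/stroma cells it was 0.0757, 0.196, 0.0868 and 0.177, so these pooled values also cover unlike libraries. The pooled hypertrophic value hides 2 levels. The ratio was 0.463 and 0.545 in the control and mutant at 3 months, and 2.34 (1.71 to 3.25) and 1.74 (1.49 to 2.03) in the control and mutant at 12 to 16 months. Other cartilage showed no such split by age, with ratios of 0.761, 0.562, 0.662 and 0.513. With 1 library per condition the age difference has no test, and the hypertrophic cells of the control at 12 to 16 months, in which Col10a1 was at 0, are 15 in number.

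The ratio of Fgfr2 to Fgfr1 separated hypertrophic from other cartilage cells in each library, at 0.337, 0.693, 0.517 and 0.346 in hypertrophic cells and 2.60, 3.20, 2.76 and 2.42 in other cartilage cells. The annotation limit on Fgfr2 counts given above applies to these ratios too, and whether it differs between groups of cells was not tested. Endplate cells had ratios of 0.854, 0.663, 1.67 and 0.5, with the third from 1 cell, and bone/stroma cells 1.0, 4.33, 1.09 and 1.89. Within bone/stroma the ratio was 1.69, 4.75, 3.85 and 2.44 in marrow stromal cells and 0.555, 1.5, 0.489 and 0.977 in osteoblastic cells. The osteoblastic ratio of 1.5 rests on 4 cells, with 24 Fgfr2 and 16 Fgfr1 UMIs. The marrow stromal ratios overlapped those of other cartilage, and the osteoblastic ratios those of hypertrophic cells. Of the hypertrophic cells themselves, 25 of 38, 74 of 136, 11 of 15 and 37 of 56 by library also met the Sp7, Ibsp and Bglap rule that defined osteoblastic cells, so these groups share markers.

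**Figure D4:**
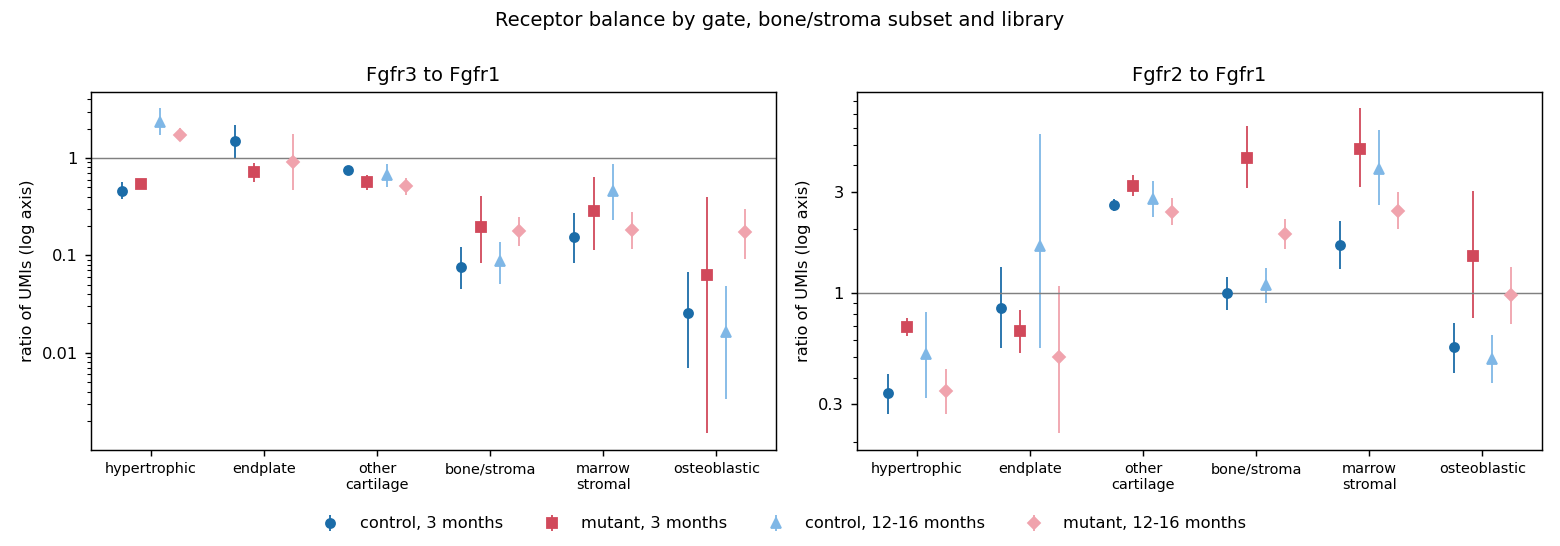
Ratio of Fgfr3 to Fgfr1 and of Fgfr2 to Fgfr1 UMIs (log axis) by gate and subset, with 1 point per library and exact 95% intervals, and sums of fewer than 10 UMIs left out. Both hypertrophic sums of 12 to 16 months lie above both of 3 months for Fgfr3 to Fgfr1, with that of the control from 15 cells that lacked Col10a1.

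Shares of cells gave the same order when each cell was thinned to 3000 UMIs, which left out 160 of 1757 cells. Fgfr3 was then detected in 47.5% of hypertrophic, 50.8% of endplate, 24.4% of other cartilage and 9.13% of bone/stroma cells, and in 0.147% of hematopoietic cells, a type taken as lacking it. Fgfr2 was detected in 37.3%, 45.3%, 66.8% and 56.6% of these gates, and in 17.4% of hematopoietic cells. Fgfr1 was found in 48.7% of hypertrophic and 35.2% of other cartilage cells, against 0.662% of hematopoietic cells. Without thinning, Fgfr1 was detected in 92.2% and 72.6% of cells of these gates, at median depths of 20614 and 10774 UMIs, and in 2.30% of hematopoietic cells at a median of 9174 UMIs. In the hypertrophic gate the thinned share of Fgfr3 was 42.0%, 41.2%, 65.7% and 61.7% by library.

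Pairs of receptors in the same thinned cell followed the shares. Fgfr2 without Fgfr3 was seen in 50.1% of other cartilage and 20.9% of hypertrophic cells, and Fgfr3 without Fgfr2 in 7.70% and 31.1%. Both were seen together in 16.7% and 16.4% of these cells. At this depth a cell without a UMI of a receptor cannot be said to lack it.

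Among the ligands, Fgf7 had the sharpest distribution. Bone/stroma cells held 98.1, 33.6, 59.1 and 136 CPM of Fgf7, and other cartilage 0.973, 0.425, 0 and 0 CPM, with 8 UMIs in 984 cells. A count of 0 Fgf7 UMIs allows up to 3.29 and 1.8 CPM in these sums. The groups did not overlap, and the log2 fold change was 6.73 ± 0.551 (SE, n = 4 libraries, adjusted p = 5.47e-07 in edgeR). Fgf7 would not have passed the filter on low counts without its bone/stroma sums, where it is high. This p-value is therefore that of a gene selected by the filter and is not read as support. The call was also made with no filter. Without hematopoietic cells Fgf7 was at 98.4, 153, 56.4 and 148 CPM. Most of the Fgf7 UMIs of this gate, 240 of 280, came from marrow stromal cells, at 167, 196, 153 and 253 CPM. Osteoblastic cells held 27.6, 72.7, 10.9 and 12.3 CPM, the second from 4 cells. Outside these subsets, 9 Fgf7 UMIs lay in 3 mural cells and 7 in 2 hematopoietic cells of the control at 12 to 16 months. In thinned cells Fgf7 was detected in 42.1% of marrow stromal and 10.1% of osteoblastic cells, and in 0.956% of hematopoietic cells.

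Fgf2 was lower in bone/stroma, at 5.10, 3.48, 8.45 and 12.4 CPM, than in other cartilage, at 35.3, 39.5, 49.3 and 43.2 CPM. The log2 fold change was -2.68 ± 0.424 (SE, n = 4 libraries, adjusted p = 0.000146 in edgeR), and every bone/stroma value lay below every other cartilage value. Without hematopoietic cells the bone/stroma levels of Fgf2 were 5.11, 15.9, 9.66 and 13.5 CPM. Hypertrophic cells held 72.3, 44.2, 35.4 and 36.2 CPM of Fgf2, which overlapped with other cartilage (adjusted p = 0.911 in edgeR). Fgf2 overlaps Nudt6 on the other strand in the annotation, and strand handling was not given in the sources used here.

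Fgf1 reached its highest level in mural cells, the contractile cells around small vessels, most of which lay in no gate. In mural cells outside the cartilage gates (at least 3 UMIs of Acta2, Myh11 and Rgs5 together, neither hematopoietic nor endothelial) it was at 221, 268, 217 and 210 CPM in 10, 18, 3 and 25 cells. These 56 cells held 138 of the 437 Fgf1 UMIs, and 47.7% of them had a Fgf1 UMI after thinning, against 2.43% of hematopoietic cells. Hypertrophic cells held 17.0, 28.8, 5.05 and 38.0 CPM of Fgf1 and other cartilage 7.65, 3.83, 6.58 and 20.4 CPM. This difference of 1.33 ± 0.497 on the log2 scale missed the threshold (SE, n = 4 libraries, adjusted p = 0.0664 in edgeR) and passed it under 3 of 13 alternatives.

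Fgf18 was found mostly in other cartilage, with 11, 1, 7 and 13 UMIs by library in that gate, of 39 in all. The level was 1.53, 0.425, 7.67 and 7.80 CPM, higher in both libraries of 12 to 16 months than in both of 3 months. Fgfr4 had 2, 8, 0 and 1 UMIs by library over all passing cells.

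The upstream sequence is shown for Fgfr3 and Fgf7, the members called in at least 2 comparisons of gates whose RefSeq start lies within 100 bases of the GENCODE start. Fgf7 met this rule only through its endplate call, which rests on few UMIs. In bone/stroma against other cartilage Fgfr3 was lower and Fgf7 higher. Both windows are on the plus strand of GRCm38.p6 and end at the last base before the annotated gene, the Fgfr3 window at chr5:33721474-33721673 and the Fgf7 window at chr2:126034408-126034657. Capitals mark matches on either strand to a GC box (GGGCGG), a RUNX core (TGTGGT) or a SOX core (ACAAAG).
Fgfr3: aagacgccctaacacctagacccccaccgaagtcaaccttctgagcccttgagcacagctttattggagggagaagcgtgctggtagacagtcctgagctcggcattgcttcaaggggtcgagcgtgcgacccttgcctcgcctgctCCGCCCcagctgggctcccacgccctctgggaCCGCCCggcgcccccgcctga
Fgf7: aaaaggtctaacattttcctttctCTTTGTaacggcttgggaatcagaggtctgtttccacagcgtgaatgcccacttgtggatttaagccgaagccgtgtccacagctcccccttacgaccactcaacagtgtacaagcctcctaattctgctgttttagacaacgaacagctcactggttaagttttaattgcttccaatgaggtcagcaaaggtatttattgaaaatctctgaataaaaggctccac
The Fgfr3 window of 200 bases had 65.0% G and C, 14 CpG dinucleotides and 2 GC boxes, and the Fgf7 window of 250 bases had 43.6%, 6 CpG dinucleotides, no GC box and 1 SOX core. Over all 32851 promoter windows of 250 bases the median was 52.4% G and C and 6 CpG, and 32.7% held a GC box, 14.0% a RUNX core and 16.5% a SOX core, so each motif found here is common. RefSeq gave an upstream sequence for 7 of the 9 members.

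Other genes of the pathway were taken from 4 lists of 69 genes, of which 39 were tested between gates. Between hypertrophic and other cartilage cells 7 were higher and 6 lower, where 11.3% of all tested genes were higher and 12.1% lower. The 7 include Fgf13, higher by 2.56 ± 0.741 (SE), which passed the filter on low counts only through its bone/stroma sums. The 3 called among 9 tested inhibitors and targets of FGF signalling were all lower in hypertrophic cells, with log2 fold changes of -3.03 ± 0.752 for the MAPK phosphatase Dusp6, -2.25 ± 0.501 for the feedback inhibitor Spry2 and -2.26 ± 0.438 for the transcription factor Etv5 (SE, adjusted p = 0.00795, 0.00384 and 0.00133 in edgeR). The median of these 9 genes was -0.74, against -0.02 over all tested genes, but it is the value of Spry1 (-0.74 ± 0.935). Spry1 was at most at 3.54 CPM in any sum of these gates and passed the filter on low counts only through bone/stroma. The median is therefore not read as a shift of the list, and Dusp5 (0.22 ± 0.603) and Spry4 (0.80 ± 0.813) lay above 0 without being called. Dusp6 was at 5.65, 0, 0 and 3.54 CPM in hypertrophic cells and 14.5, 17.4, 20.8 and 8.40 CPM in other cartilage. Among 9 tested co-receptors and carriers 4 were higher and 1 lower. The higher ones included Flrt2, a membrane partner of FGF receptors, by 4.17 ± 0.541, and the proteoglycans Sdc3 by 1.90 ± 0.333 and Gpc1 by 1.68 ± 0.351. The lower one was Sdc1 (-1.14 ± 0.379). Of 20 tested adaptors and relays 2 were higher and 2 lower, which is no more than the shares of all tested genes. Frs2, which docks to the receptors, and Gab1 were higher by 1.14 ± 0.251 and 2.67 ± 0.487. Hras (-1.01 ± 0.233) and Shc1 (-0.70 ± 0.239) were lower.

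In bone/stroma 11 of the 39 pathway genes were higher and 6 lower than in other cartilage, where 16.3% of all tested genes were higher and 16.8% lower. Spry1 was higher by 5.09 ± 0.568 and Spry4 by 2.88 ± 0.706 (SE, adjusted p = 2.06e-05 and 0.00492 in edgeR). Spry2 (-1.3 ± 0.462) and Etv5 (-1.21 ± 0.411) were lower (SE, adjusted p = 0.0403 and 0.0335 in edgeR). Flrt2 rose by 5.96 ± 0.544 and the intracellular FGF homologue Fgf13 by 4.56 ± 0.670, and the syndecan Sdc4 fell from 2194, 2148, 1868 and 2057 CPM in other cartilage to 155, 52.2, 64.7 and 149 CPM. Spry1, Spry4 and Fgf13 would not have passed the filter on low counts without their bone/stroma sums, where they are high. Their p-values are therefore those of genes selected by the filter and are not read as support, and the count of 11 higher genes includes them. In endplate against other cartilage cells 4 were higher (Gpc1, Gab1, Frs2 and Flrt2) and 4 lower, among them Sdc4, Hras and Spry2, where 5.98% of all tested genes were higher and 7.38% lower. Fgf13 was the single tested gene of the 18 other ligands.

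The question of whether Nf1 status goes with member levels was put to other cartilage cells, the gate with at least 74 cells in each library (2 libraries of each label, label and age as terms, 1 residual degree of freedom). In edgeR 0 of 7 tested members were called between mutant and control, where 0.385% of 10649 genes were higher and 0.338% lower. None had an unadjusted p under 0.05, and DESeq2 called 0 members. The adjusted p was 0.996 for each, with log2 differences from -0.39 ± 0.677 for Fgf18 to 0.24 ± 0.495 for Fgf1 (SE). Fgf7 and Fgfr4 did not pass the filter.

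Between the ages 1 member was called in these cells, where 1.2% of genes were higher at 12 to 16 months and 0.432% lower. Fgf18 was higher by 2.79 ± 0.677 on the log2 scale (SE, 2 libraries against 2, adjusted p = 0.0219 in edgeR). It rests on 32 UMIs in 984 cells, and the call was lost with no filter on low counts and without the label term, where the adjusted p was at most 0.0995, while DESeq2 gave it no adjusted p. Fgf18 passed the filter on low counts only through the libraries of 12 to 16 months, where it is high. Its p-value is therefore not read as support for a difference between the ages. Dcn, listed among fibroblast markers with Dpt, Pi16, Scx and Tnmd, was at 6528, 5637, 16244 and 18957 CPM in the same sums. The other genes of that list are not given here, so Dcn alone does not show fibroblasts in this gate. Its part in the Fgf18 result was not tested. Fgf1 was higher by 1.15 ± 0.5 and was not called (SE, adjusted p = 0.447 in edgeR).

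Over all passing cells the mutant and control of an age were compared as ratios of CPM with exact conditional 95% intervals, which cover counting error only, without a test, and the libraries differed in the make-up of their cells. At 3 months 1 of 7 members with at least 20 UMIs was at least 1.5-fold higher and 2 were lower, where 27.8% of genes were higher and 11.9% lower. At 12 to 16 months 2 of 8 members were higher and 0 lower, where 16.2% of genes were higher and 7.88% lower. Fgf1 lay above 1 at both ages, with ratios of 1.99 (1.55 to 2.56) and 2.36 (1.56 to 3.69). In other cartilage alone, however, the Fgf1 ratio was 0.5 (0.217 to 1.02) at 3 months and 3.10 (1.29 to 9.04) at 12 to 16 months. Within mural cells the 4 Fgf1 levels lay between 210 and 268 CPM. Mural cells outside the cartilage gates made up 10 of 717 and 18 of 484 cells at 3 months and 3 of 135 and 25 of 421 at 12 to 16 months, and their part in the ratio over all cells was not tested.

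Fgfrl1 was lower in the mutant at 3 months, at 0.514 of the control (0.457 to 0.576), and this held within the hypertrophic gate (0.447, 0.351 to 0.570), the endplate gate (0.419, 0.270 to 0.651) and other cartilage (0.610, 0.514 to 0.721). These ratios all come from the same pair of libraries. Bone/stroma held 18 Fgfrl1 UMIs in the control and 10 in the mutant at 3 months, and without hematopoietic cells the mutant level there was not below the control. At 12 to 16 months the Fgfrl1 ratio was 1.40 (1.14 to 1.72) over all cells and 1.38 (0.979 to 1.97) and 1.15 (0.859 to 1.55) in hypertrophic and other cartilage cells. Fgfr2 in the hypertrophic gate was 1.80 times as high in the mutant at 3 months (1.48 to 2.21) and 1.08 times at 12 to 16 months (0.712 to 1.70). Fgfr3 had ratios of 1.08 (0.987 to 1.18) and 1.29 (1.12 to 1.5) over all cells and 1.03 and 1.2 in the hypertrophic gate at the younger and older age. In other cartilage the Fgfr3 ratios lay below 1, at 0.809 (0.695 to 0.939) and 0.816 (0.625 to 1.07), as did that of endplate cells at 3 months at 0.701 (0.522 to 0.949). Nf1 itself had ratios of 1.14 and 0.853.

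**Figure D5:**
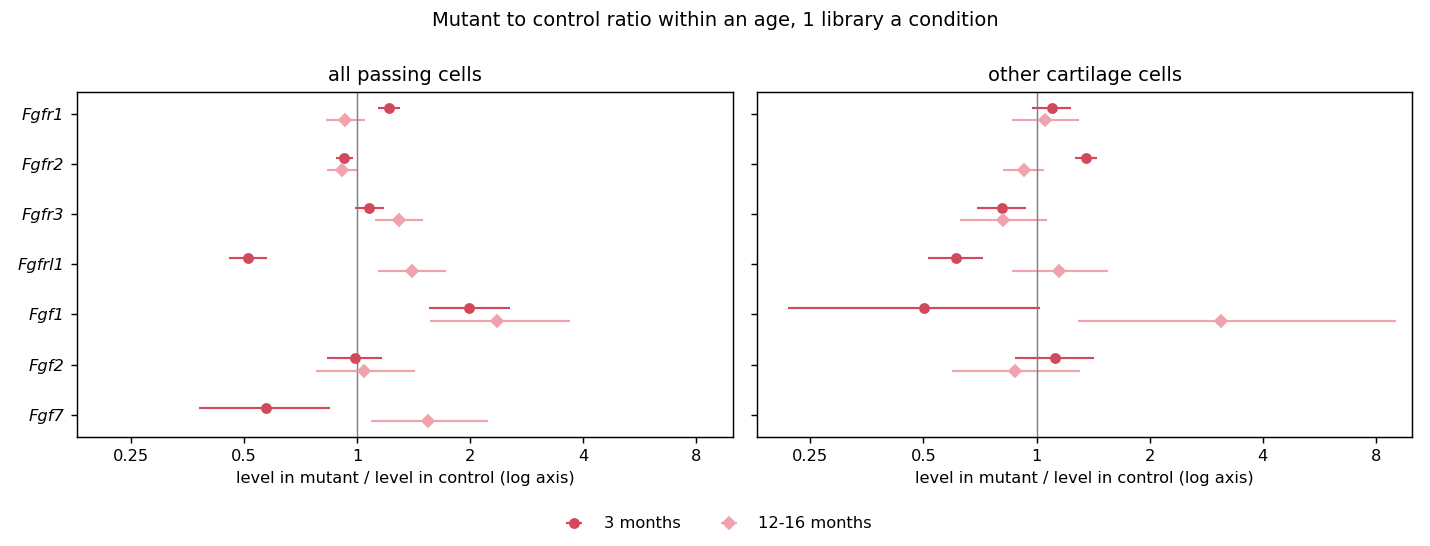
Level in the mutant over the level in the control of the same age for members with at least 20 UMIs (log axis), over all passing cells and in other cartilage cells, with exact 95% intervals for counting error and Fgf18 left out. Fgfrl1 lies below 1 at 3 months in both panels, and Fgf1 lies above 1 over all cells at both ages.

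The genes whose pattern was most like each member were sought over 14 sums of gate and library with at least 10 cells, as Pearson's r of log2(CPM + 1) among 9913 genes with at least 200 UMIs. Sums of a library share depth and preparation, so these values are a description. Fgfr3 was nearest to Sobp (r = 0.971), 2810001G20Rik (0.971) and Papss2 (0.969), an enzyme of sulfate activation for cartilage proteoglycans. Fgfr2 was nearest to Mxra8 (0.958), Naa80 (0.933) and the microfibril gene Fbn1 (0.932). Fgfr1 had looser neighbours in Zbtb7c (0.882), Kdelr3 (0.878) and Tmem263 (0.851). Fgf7 lay with Fgd6 (0.971), Megf10 (0.969) and Dapk2 (0.965), Fgf2 with the WNT antagonist Frzb (0.957), Atp2b1 (0.948) and Dnajb2 (0.939), and Fgfrl1 with Tspan3 (0.965), Pigp (0.952) and Prnp (0.951). For Fgf1 the nearest were 1810062G17Rik (0.892), D330023K18Rik (0.776) and 3830403N18Rik (0.772). The sums leave out cells in no gate, among them most mural cells, in which Fgf1 was highest.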

How the data were processed

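The authors aligned and counted the reads with Cell Ranger 8.0.0 against mm10 with a tdTomato sequence added, and deposited UMI counts per gene and called cell, unfiltered. Whether intron reads were counted, and the annotation release, are not given in the sources used here. Cells were filtered at the study's thresholds. The study's SoupX step was not repeated, so free RNA remains in the counts, and 3′ counts do not separate splice forms of the receptors.

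The members, gates and lists were chosen with earlier results of these data known. UMIs were summed per gate and library in Python 3.11.15 (pandas 2.3.3, scipy 1.17.1, numpy 2.4.6). Gate differences used edgeR 4.0.16 in R 4.3.3 (filterByExpr, TMM, glmQLFTest, library as a block) over 16 sums, and label and age differences used 4 sums. Standard errors are the log2 fold change divided by the square root of F. Both scripts were tested on simulated data. Libraries stand as replicates although each is a condition of its own, and nothing says how many mice each holds. Gate p-values measure how gate differences vary across these 4 samples, with dispersion shared over genes. Label and age p-values, with 1 residual degree of freedom, rest largely on dispersion shared over genes. None measures the spread between mice of a condition. Doublets were called with Scrublet (scanpy 1.11.5) and kept. Thinned shares are means over 20 draws. Genes named are the members, Nf1, the gate genes, the 3 nearest genes of each member with at least 200 UMIs, and pathway genes past a threshold. Alternatives covered DESeq2 1.42.0, size factors, filters, gates, doublets, cell weights, thinning depth and each library left out. Starting with the endplate gate, and ratios in other cartilage only, were added after seeing the data. The promoter windows and motifs were also chosen after seeing the data. Intervals are exact Poisson, conditional binomial or Clopper-Pearson at 95%, and cover counting error only. The result of 1 pathway gene is not reported here.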

Additional observations from a re-analysis of the deposited data

Results flagged for a closer look

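In several members the mutant and control libraries differed in opposite directions at the 2 ages, or the ages differed in opposite directions in mutant and control, with 95% counting intervals on opposite sides of 1. The difference between the ages or labels was not tested in any of them, since each condition has 1 library, and each library enters more than 1 of these ratios. The share of all genes that turned in this way is not given here, so the pattern cannot be called particular to the members.

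Fgfrl1 over all cells had a mutant to control ratio of 0.514 at 3 months and 1.40 at 12 to 16 months, and a ratio of 12 to 16 months to 3 months of 0.534 in controls and 1.45 in mutants. The level was 110 CPM in the control at 3 months and 56.7, 58.9 and 82.3 CPM in the mutant at 3 months and in the control and mutant at 12 to 16 months. Both Fgfrl1 ratios below 1 involve the high control at 3 months, and both ratios above 1 (1.14 to 1.72 and 1.26 to 1.68) do not.

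Fgf7 over all cells had a mutant to control ratio of 0.572 at 3 months and 1.55 at 12 to 16 months. In bone/stroma the Fgf7 ratios were 0.343 and 2.30, and the ratio of 12 to 16 months to 3 months was 0.602 in controls and 4.05 in mutants. Beside these values, 23 of 39 bone/stroma cells of the mutant at 3 months were hematopoietic. Without hematopoietic cells the Fgf7 ratio was 1.56 (0.981 to 2.42) at 3 months and 2.63 (1.80 to 3.93) at 12 to 16 months, and in marrow stromal cells 1.17 (0.716 to 1.87) and 1.66 (1.04 to 2.77), so the opposite directions were not seen there.

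Fgfr2 in bone/stroma had ratios of 0.722 at 3 months and 1.35 at 12 to 16 months. Without hematopoietic cells these were 2.61 and 1.35, and in marrow stromal cells 2.48 (1.96 to 3.14) and 0.749 (0.610 to 0.926). Fgfr1 in hypertrophic cells had ratios of 0.877 at 3 months and 1.62 at 12 to 16 months, where the control at 12 to 16 months holds 15 cells.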

How the results depend on the processing

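No paired analysis was possible because each condition has 1 library, so labels and ages have no replicates to pair, while the comparison of gates holds library as a block. The 4 bone/stroma calls and the Fgfr2 difference in hypertrophic cells passed under all 13 alternatives. For Fgf7, which passed the filter on low counts only through its bone/stroma sums, this is not read as support. Leaving out 1 library gave 1 to 2 members called in hypertrophic against other cartilage and 0 to 3 in endplate against other cartilage. For the alternatives, here and above, the share of all genes called is not given, so these counts cannot be set against other genes. Hypertrophic against endplate gave 1 call (Fgf7) with no filter, and the age comparison 0 with DESeq2, with no filter and with 1 term. Members past 1.5-fold at 12 to 16 months fell to 1 with TMM factors or in other cartilage alone. The Fgfr3 to Fgfr1 ratio in bone/stroma was 0.16 with equal cell weights. Among fitted differences, each sign that turned belonged to one not called. With the endplate gate first, Fgfrl1 was -0.26 in hypertrophic against other cartilage, and against endplate Fgfr3 was -0.19 and Fgfrl1 -0.53. In endplate against other cartilage, Fgfrl1 was -0.077 and Fgf1 -0.12 with no filter, and Fgf1 -0.21 without the library block. In bone/stroma, Fgf1 was -0.048 with no filter, -0.017 without the block and -0.12 with stricter gates. In hypertrophic against endplate, Fgfrl1 and Fgfr1 were -0.063 and -0.023 with size factors and -0.051 and -0.00925 in DESeq2, Fgfr3 and Fgfrl1 -0.35 and -0.37 with sums of at least 10 cells, and Fgfrl1 -0.012 without doublets. Fgf18 was 0.39 between mutant and control with 1 term, and Fgfr1 -0.035 with no filter and -0.013 without doublets between ages. The log2 ratio at 3 months was 0.069 for Fgf7 with equal cell weights and -1.0 for Fgf1 in other cartilage. Leaving out 1 library in turn gave these log2 ranges for members whose sign turned. Hypertrophic against other cartilage ranged from -0.29 to 0.23 for Fgf2 and -0.021 to 0.35 for Fgfrl1, endplate against other cartilage from -0.26 to 0.26 for Fgfrl1 and -0.35 to 0.40 for Fgf1, and bone/stroma against other cartilage from -0.25 to 0.51 for Fgf1. Hypertrophic against endplate ranged from -0.21 to 0.91 for Fgf2, -0.21 to 0.50 for Fgfr3, -0.21 to 0.42 for Fgfrl1 and -0.14 to 0.19 for Fgfr1. In other cartilage, where a library left out leaves a value with no test, mutant against control ranged from -0.032 to 0.45 for Fgfr2, -0.70 to 0.28 for Fgfrl1, -0.98 to 1.72 for Fgf1, -0.11 to 0.18 for Fgf2 and -1.83 to 0.11 for Fgf18, and 12 to 16 against 3 months from -0.38 to 0.097 for Fgfr2, -0.65 to 0.33 for Fgfrl1 and -0.26 to 2.44 for Fgf1. The causes were not tested. Endplate values rest on 1 to 38 cells per library, and Fgfr4 and Fgf18 are at or near the limit of detection.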
